A study of Ovis aries with 30 samples.

Results

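Adipokines are the signalling proteins that adipose tissue releases into blood or acts on locally, and 10 genes for them and their receptors were followed here, of the 28524 genes in the count table. They were picked by name: the hormones leptin (LEP) and adiponectin (ADIPOQ), the retinol carrier RBP4, chemerin (RARRES2), adipsin (CFD), apelin (APLN), the irisin precursor FNDC5, the leptin receptor (LEPR) and the adiponectin receptors ADIPOR1 and ADIPOR2. All 10 had a row in the table. The reads came from perirenal brown adipose tissue (BAT) and thyroid tissue of 15 newborn Romney lambs of both sexes, 1 lamb from each twin pair, so that there were 30 libraries. Of the lambs, 6 spent 2 days indoors at 4 °C (cold), 6 spent 2 days indoors at 20 to 22 °C (ambient temperature, AT), and 3 controls were sampled within a day of birth, when they came indoors. The treated lambs stayed with their dams and suckled, and at sampling their age exceeded that of the controls by 2 days, so that in every comparison with the controls the treatment and the time after birth cannot be told apart. The cold and AT groups share an age and differ in temperature. In pieces of whole tissue, fewer cells of a type and less RNA per cell cannot be told apart either.

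Leptin rises with stored fat and signals satiety to the brain through LEPR, while adiponectin acts on liver and muscle through ADIPOR1 and ADIPOR2 to favour fatty acid oxidation. BAT of the newborn lamb makes heat through UCP1 and turns into white adipose tissue during the weeks after birth, and leptin is known as a product of white rather than brown adipocytes. The thyroid gland sets the supply of thyroid hormone, which BAT needs for thermogenesis.

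The counts per gene were divided by a size factor for each library, set on the reference genes ACTB, RPL19 and HUWE1 as in the study, and are called normalized counts below. Depth was 31556500 to 37025998 counts per library in BAT and 25062784 to 30124871 in thyroid tissue. In BAT 2 unnamed genes took 43.8% to 76.5% of the counts, which left 8093700 to 18276329 counts for all other genes. The study fitted 2 of its 3 controls, here Control 1 and Control 3, and left out the third lamb, here Control 2, so that the values of Control 2 are given beside the results but did not enter the main fit. This lamb stood apart in BAT, with a summed normalized count of 137712 over 11 brown adipocyte markers against 2774 to 35590.4 in the other 14 lambs, and with 22185 over 13 endothelial markers against 63349 to 102981. Other libraries stood apart by their markers too. AT 6 had the lowest sum of adipocyte markers in BAT (30107 against 48395 to 153154) and the highest of stromal markers (188699 against 32658 to 110044). In thyroid tissue AT 3 reached 3848690 over skeletal muscle markers, Control 1 reached 356315, and the other lambs had 315 to 4730.3. The tissue labels fitted their markers, since 13 thyroid follicular markers summed to 275 to 1900 in BAT and to 1335760 to 5912590 in thyroid tissue.

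The genes lie on 8 chromosomes of the Rambouillet genome assembly used by the authors, and the positions are those of the first and last annotated exon base. LEP spans 101297507 to 101302245 on the plus strand of chromosome 4, and RARRES2 spans 122313186 to 122316466 on the minus strand of the same chromosome. LEPR, at 43101289 to 43200280 on the plus strand, and ADIPOQ, at 218920656 to 218933218 on the minus strand, share chromosome 1. ADIPOR1 is on chromosome 12 (83451877 to 83464899, plus strand) and ADIPOR2 on chromosome 3 (229003329 to 229043625, plus strand). RBP4 is on chromosome 22 (16938073 to 16944695, minus strand), FNDC5 on chromosome 2 (250418188 to 250426205, plus strand) and APLN on the X chromosome (121345900 to 121355115, minus strand). CFD, on chromosome 5 (45523132 to 45526551, plus strand), overlaps MED16 on the opposite strand. Whether the counting used strand is not given in the sources used here, so reads of CFD and MED16 could be shared and the level of CFD is uncertain. No other member overlapped another gene in the table.

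Per kilobase of exon, ADIPOQ was the most abundant member in BAT, with a median of 14206 normalized counts per kilobase over the 15 lambs. RARRES2 followed at 3564, and it was below ADIPOQ in 15 of 15 lambs although the ranges of the 2 genes overlapped. Then came ADIPOR2 (509), RBP4 (444), ADIPOR1 (190.1) and CFD (160.0), which exchanged places between lambs: ADIPOR2 exceeded RBP4 in 11 of 15 lambs, RBP4 exceeded ADIPOR1 in 12, and ADIPOR1 exceeded CFD in 9. FNDC5 (45.1), APLN (28.9) and LEP (25.9) were lower and could not be ordered, since FNDC5 exceeded APLN in 9 lambs and APLN exceeded LEP in 7. In thyroid tissue the order differed: RARRES2 came first at a median of 2960 per kilobase, above every other member in range, and was followed by ADIPOR1 (479), ADIPOQ (384), CFD (369), RBP4 (257), ADIPOR2 (252), APLN (151), FNDC5 (145) and LEP (1.31). Only the step from ADIPOR2 to APLN, in 15 of 15 lambs, and that from FNDC5 to LEP held in every lamb among these lower places.

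LEPR RNA was close to the limit of detection in both tissues. Over all 15 libraries it had 12 counts in BAT and 18 in thyroid tissue, it was at 0 in 9 of 15 libraries in each, and its highest count was 5 in BAT and 8 in thyroid tissue. The 3 BAT controls all had 0 counts. LEPR failed the filter on low counts in both tissues and no difference between groups was detectable at this depth. LEP itself had 19 to 397 counts in BAT but 0 to 21 in thyroid tissue, where it failed the filter too. In thyroid tissue the normalized count of LEP was 0.91 to 9.72 (median 3.53) in cold lambs, 0 to 18.6 (median 7.09) in AT lambs, 0 in Control 1 and Control 2, and 2.65 in Control 3. An exact permutation test, two-sided, gave p = 0.214 for cold and p = 0.214 for AT against the 2 controls and p = 0.396 for cold against AT.

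**Figure D1:**
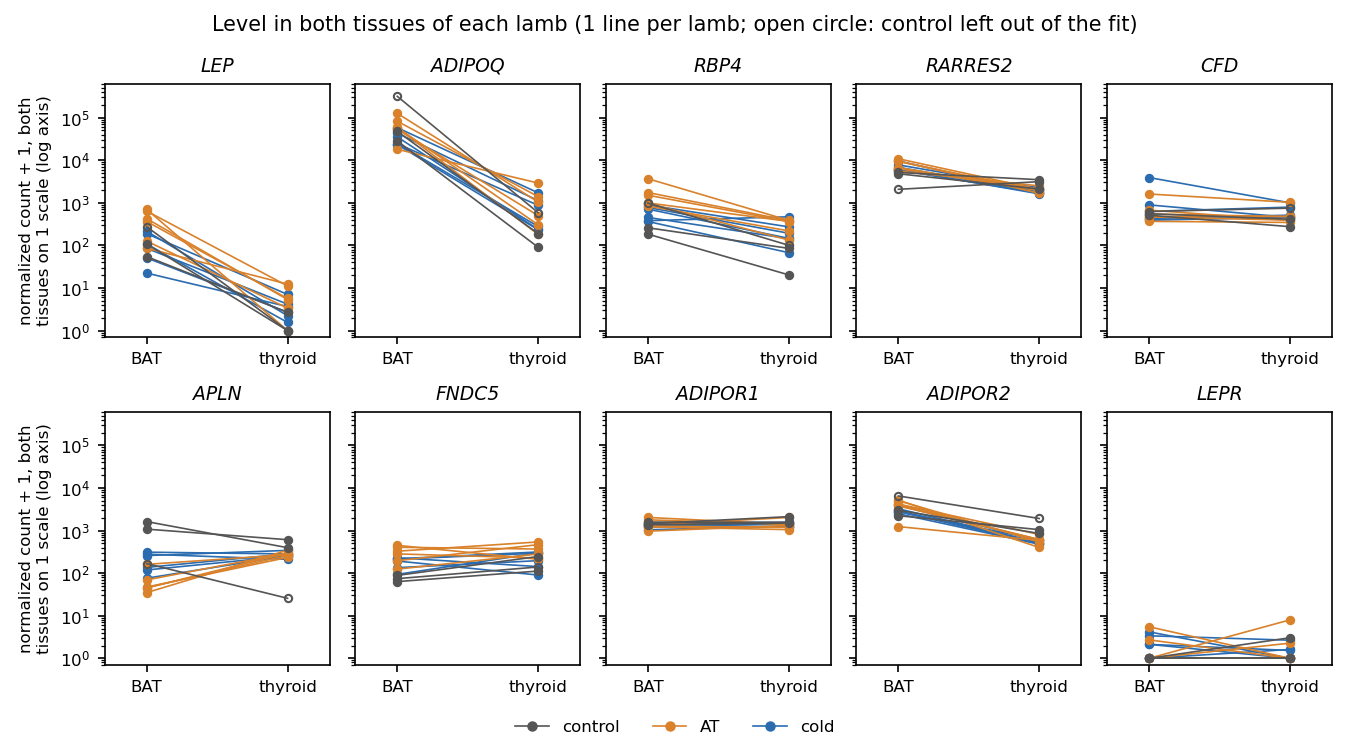
Normalized count plus 1 (log axis, both tissues scaled together) of each of the 10 genes in BAT and in thyroid tissue, with 1 line per lamb coloured by group and an open circle for Control 2. All lines of LEP and ADIPOQ fall steeply from BAT to thyroid tissue, those of ADIPOR1 stay level, and LEPR lies near 0 in both tissues.

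BAT and thyroid tissue differed mostly in the 2 classical adipocyte hormones. ADIPOQ was 92.7-fold and LEP 63.3-fold higher in BAT, and the ranges of the 2 tissues did not overlap for either gene over the 15 lambs. With both tissues on 1 scale, ADIPOQ ranged from 18057 to 316153 (median 47584) normalized counts in BAT and from 89.7 to 2911 (median 501) in thyroid tissue, and LEP from 21.4 to 699 (median 125) and from 0 to 11.3 (median 2.37). ADIPOR2 was higher in BAT in 15 of 15 lambs (log2FC 2.22 ± 0.18 SE, edgeR adjusted p = 1.56e-11), RBP4 in 14 of 15 (1.98 ± 0.34, edgeR adjusted p = 1.39e-05) and RARRES2 in 14 of 15 (1.58 ± 0.13, edgeR adjusted p = 3.02e-11). The log2FC of ADIPOQ was 6.53 ± 0.67 (edgeR adjusted p = 4.81e-09) and that of LEP 5.98 ± 0.68 (edgeR adjusted p = 1.5e-08). A gene was called when the log2FC was at least 1 in size and the adjusted p, over all genes tested, was under 0.05. By this rule 5 of 9 members were called higher in BAT and 0 lower, where 25% of all 17021 genes tested were called higher and 14.2% lower. All 5 were called under every other scaling, tool and left-out lamb that was tried. LEP, however, entered this fit only through its BAT counts, since it had 0 to 21 counts in thyroid tissue and failed the filter there. Its call and its place among the 5 therefore rest in part on the filter, and the size of its fold is uncertain.

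The other members were closer between the tissues. ADIPOR1, the ubiquitous adiponectin receptor, had a log2FC of -0.10 ± 0.12 (edgeR adjusted p = 0.489), and it was higher in BAT in 6 of 15 lambs. The log2FC was 0.64 ± 0.37 for CFD (edgeR adjusted p = 0.123), -0.37 ± 0.23 for APLN (edgeR adjusted p = 0.159) and -0.60 ± 0.25 for FNDC5 (edgeR adjusted p = 0.0360, under the fold change asked for).

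APLN, the gene of apelin, a peptide of endothelial cells and adipocytes that acts in blood vessel growth and heart output, showed the widest difference between groups in BAT. It had 1015 normalized counts in Control 1 and 675 in Control 3. Cold lambs had 45.9 to 200.2 (median 121) and AT lambs 20.4 to 96.0 (median 27.9). All 12 treated lambs were below both of these controls, but Control 2 had 108 and so lay within the range of the cold lambs. APLN was downregulated 20.3-fold in AT against control (log2FC -4.34 ± 0.51, edgeR adjusted p = 0.000484) and 6.87-fold in cold against control (-2.78 ± 0.50, edgeR adjusted p = 0.0190). The AT call held under every alternative. The cold call held with all 3 controls (-2.21, edgeR adjusted p = 0.0308), but it was lost with Controls 2 and 3 (-1.62, edgeR adjusted p = 0.122) and with Controls 1 and 2 (-2.12, edgeR adjusted p = 0.0568). The sum of the 13 endothelial markers, all of them in the table and none at 3 counts or fewer throughout, was 97982 and 92648 in the 2 controls, 64278 to 102981 in cold lambs and 63349 to 87333 in AT lambs, and 22185 in Control 2, the control with the least APLN. Their median log2FC was 0.02 in cold and -0.07 in AT, and edgeR called 2 of them lower in AT, where 3.19% of all genes were. The sum of the 11 brown adipocyte markers was 35590.4 and 27604 in Control 1 and Control 3, above 10423 to 24452 in cold and 2774 to 20793 in AT lambs without overlap, and it was highest in Control 2 (137712). Of all single genes, 24.6% in cold and 24.3% in AT did not overlap with these 2 controls either. EdgeR called 0 of the 9 brown adipocyte markers tested in cold and 0 in AT (median log2FC -0.56 and -0.60). With all 3 controls it called 0 in cold, and 1 higher and 3 lower in AT. The part of these markers in the APLN values was not tested.

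RBP4, which carries retinol in blood and comes mainly from liver and adipose tissue, moved the other way. Its normalized count was 162 and 115 in Control 1 and Control 3, 222 to 534 (median 376) in cold lambs and 530.3 to 2305 (median 751) in AT lambs. Both controls lay below every treated lamb, whereas Control 2, at 637, lay inside the AT range and above every cold lamb. RBP4 was upregulated in AT against control (log2FC 2.85 ± 0.61, edgeR adjusted p = 0.0126, 7.21-fold). Cold against control gave 1.44 ± 0.56 (edgeR adjusted p = 0.185), and it was 0.06 with Controls 2 and 3 and -0.04 with Controls 1 and 2 (edgeR adjusted p = 0.965 and 0.976). The AT call was lost with all 3 controls (1.75, edgeR adjusted p = 0.0567), with Controls 2 and 3 (1.47, edgeR adjusted p = 0.142) and with Controls 1 and 2 (1.38, edgeR adjusted p = 0.142).

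FNDC5 encodes a membrane protein, best known from skeletal muscle, from which irisin is cut. It had 54.8 normalized counts in Control 1, 47.3 in Control 2 and 39.0 in Control 3, so that Control 2 lay between the other two. Cold lambs had 59.8 to 139.9 (median 126) and AT lambs 78.0 to 269 (median 183), and no treated lamb overlapped any control. FNDC5 was upregulated in AT against control (log2FC 1.95 ± 0.46, edgeR adjusted p = 0.0181, 3.86-fold), a call that held under every alternative, among them the fit of all 3 controls (2.02, edgeR adjusted p = 0.00693). In cold against control it had 1.26 ± 0.45 (edgeR adjusted p = 0.148), and 1.32 with all 3 controls (edgeR adjusted p = 0.0569). The 14 skeletal muscle markers in the table summed to 364 to 1006.8 in BAT, with the highest sum in Control 1, and MYOT had 3 counts or fewer in every library.

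**Figure D2:**
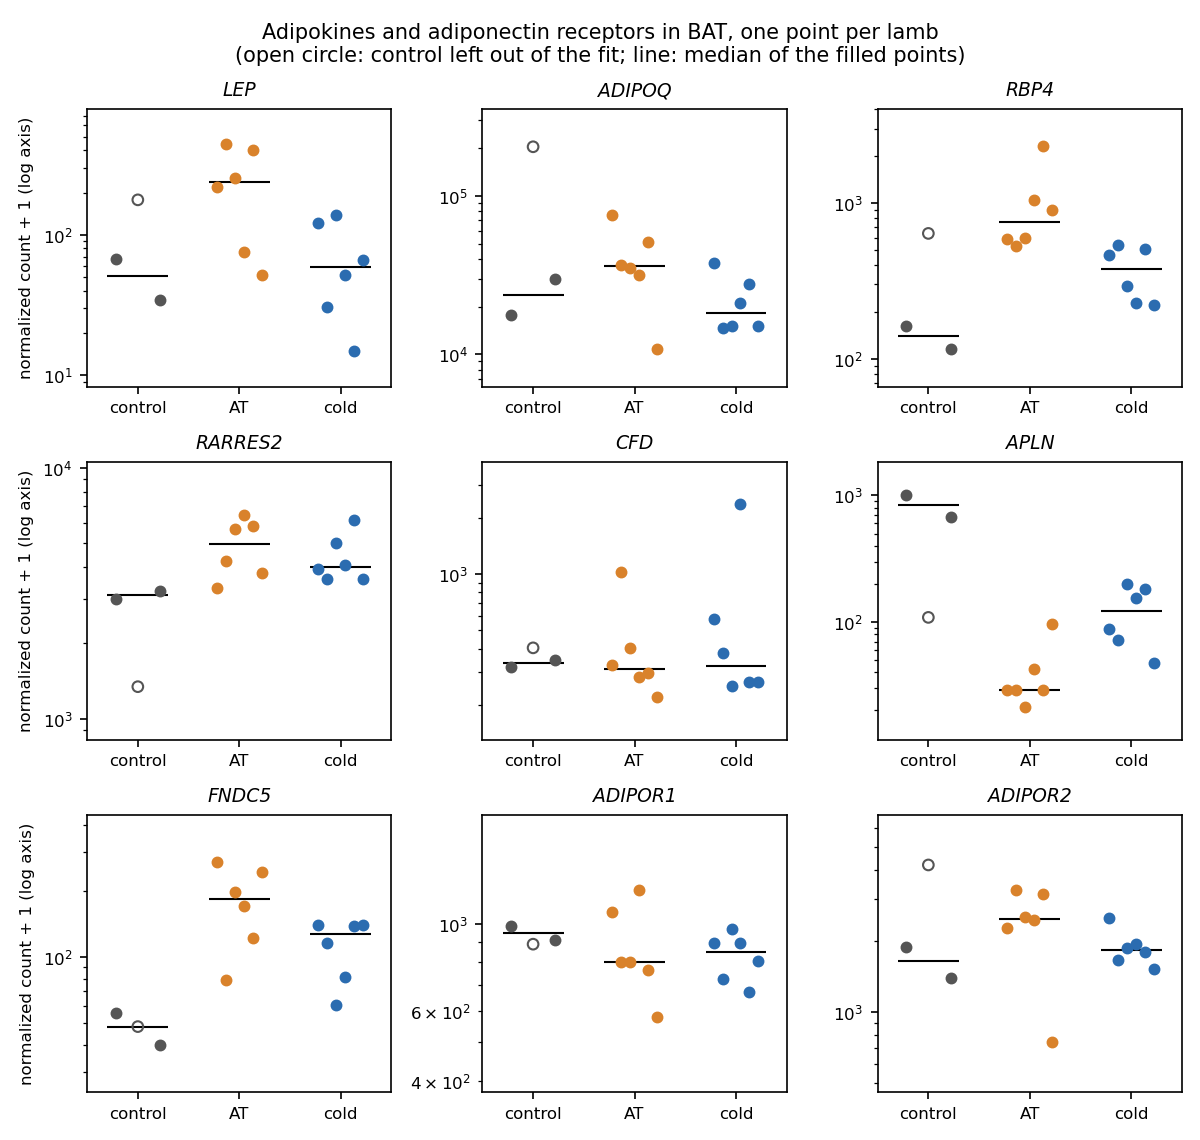
Normalized count plus 1 (log axis) in BAT of the 9 members that passed the filter, by group, with 1 point per lamb, a line at the median of the filled points and an open circle for Control 2. APLN is highest in the 2 filled controls, at 1015 and 675, FNDC5 is lowest in all 3 controls, and Control 2 lies far above all other lambs for ADIPOQ.

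LEP and ADIPOQ were not called against the controls in BAT. LEP had 66.9 and 33.5 normalized counts in Control 1 and Control 3 and 176 in Control 2. Cold lambs had 13.8 to 138 (median 57.7) and AT lambs 51.0 to 442 (median 236), and the groups overlapped. The log2FC was 0.46 ± 0.86 for cold (edgeR adjusted p = 0.825) and 2.27 ± 0.93 for AT (edgeR adjusted p = 0.141), and DESeq2 called the latter (2.26, DESeq2 adjusted p = 0.0244), as it did 5.19% of all genes. With Controls 1 and 2 the LEP values were -0.77 and 1.04. ADIPOQ had 17728 and 29776 in Control 1 and Control 3 and 204209 in Control 2, which was above every other lamb. Cold lambs had 14638 to 37511 (median 18106) and AT lambs 10840.4 to 75781 (median 35823). Against Controls 1 and 3 the log2FC of ADIPOQ was -0.12 ± 0.51 for cold (edgeR adjusted p = 0.929) and 0.76 ± 0.54 for AT (edgeR adjusted p = 0.395). Control 2 turned the sign of the AT value: with all 3 controls these became -1.91 (edgeR adjusted p = 0.0712) and -1.03 (edgeR adjusted p = 0.276), and ADIPOQ was called lower in cold with Controls 2 and 3 (-2.38, edgeR adjusted p = 0.0264) and with Controls 1 and 2 (-2.31, edgeR adjusted p = 0.0386). The sum of 14 adipocyte markers in BAT was also highest in Control 2 (153154) and lowest in AT 6 (30107), the AT lamb with the least ADIPOQ and LEP, and the part of this in these values was not tested.

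The receptors and the remaining secreted proteins differed little from the controls in BAT. ADIPOR1 stayed between 580 and 1220.3 normalized counts in all 15 lambs and its log2FC was -0.20 ± 0.24 for cold and -0.12 ± 0.24 for AT (edgeR adjusted p = 0.704 and 0.790). ADIPOR2, more abundant than ADIPOR1 and linked to PPARα and fat oxidation, ranged from 743 in AT 6 to 4195 in Control 2. Its log2FC was 0.20 ± 0.38 for cold (edgeR adjusted p = 0.824) and 0.55 ± 0.39 for AT (edgeR adjusted p = 0.384). RARRES2, the gene of the chemoattractant chemerin, had 3007 and 3223 in the 2 controls and 1340.3 in Control 2, below 3325 to 6499 in the 12 treated lambs. It gave 0.50 ± 0.29 for cold (edgeR adjusted p = 0.374) and 0.66 ± 0.29 for AT (edgeR adjusted p = 0.163), and it was called higher in AT with all 3 controls (1.04, edgeR adjusted p = 0.0363). CFD, the serine protease of the alternative complement pathway that cleaves factor B, had 2354 in Cold 4 and 1018 in AT 2, whereas the other 13 lambs had 220 to 577. Its log2FC of 1.03 ± 0.86 for cold (edgeR adjusted p = 0.566) became 0.02 without Cold 4. Cold 4 also had the highest sum of 15 immune markers in BAT, 6226, AT 2 followed with 4443, and the others had 2237 to 3482, and the part of this in the CFD values was not tested.

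Of the 9 members tested in BAT, 1 was called lower and 0 higher in cold against control, where 0.631% of 14905 genes were called lower and 0.577% higher. In AT against control 2 were called higher and 1 lower, against 2.82% and 3.19% of all genes. The median log2FC of the 9 members was 0.46 for cold and 0.66 for AT, beside -0.10 and -0.03 over all genes. Groups that did not overlap were common in these designs. With 2 controls this was so for 4 of 9 members in cold (24.6% of all genes) and 4 of 9 in AT (24.3%), and with 3 controls for 2 (13.5%) and 3 (13.5%). Since both comparisons share the same controls, they do not count as separate evidence on a member.

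**Figure D3:**
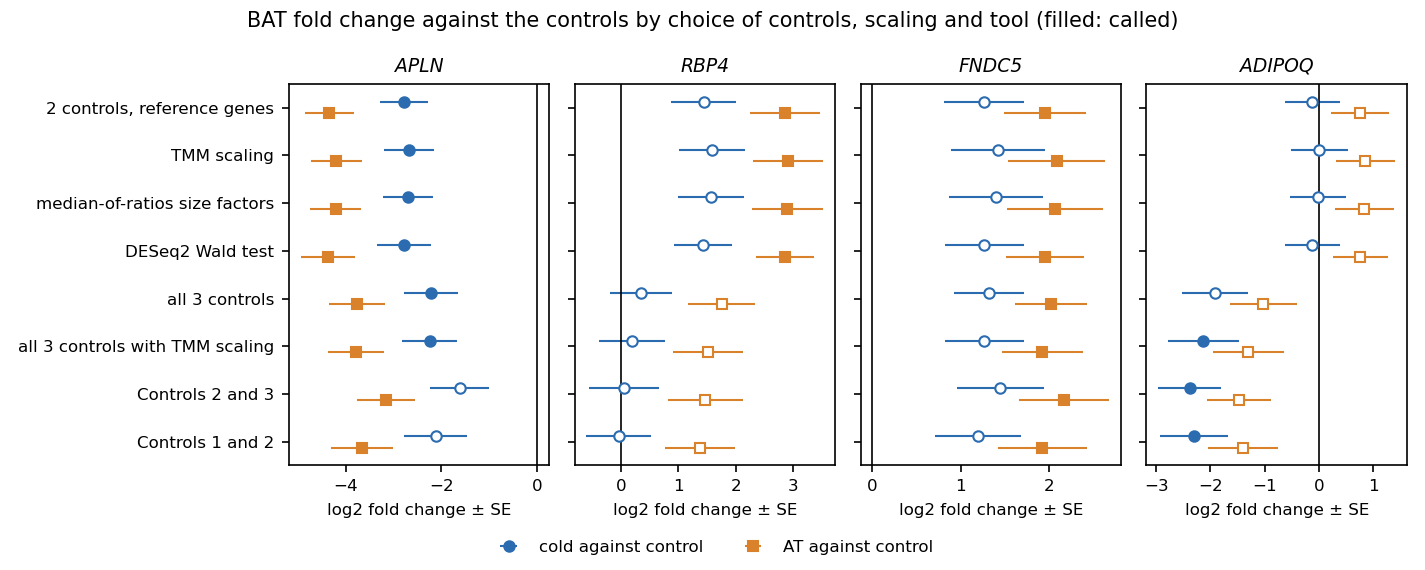
BAT log2 fold change against the controls, with its SE, of APLN, RBP4, FNDC5 and ADIPOQ (columns) under 8 choices of controls, scaling and tool (rows), for cold (circles) and AT (squares), with called values filled. FNDC5 hardly moves, APLN stays below 0 throughout, and RBP4 and ADIPOQ shift to the left as soon as Control 2 is among the controls.

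The cold and AT lambs were of the same age, and no member was called between them by edgeR in BAT. Over all genes 0.275% were called (28 higher and 13 lower in cold). Of the 9 members, 5 had an unadjusted p under 0.05 (ADIPOQ, FNDC5, LEP, RBP4 and APLN), where 12.3% of all genes did, and no member had groups that did not overlap (0.691% of all genes). These 5 gave a log2FC of -1.81 ± 0.59 for LEP (edgeR adjusted p = 0.254), -1.41 ± 0.36 for RBP4 (edgeR adjusted p = 0.130), -0.88 ± 0.37 for ADIPOQ (edgeR adjusted p = 0.357), -0.69 ± 0.29 for FNDC5 (edgeR adjusted p = 0.355) and 1.56 ± 0.42 for APLN (edgeR adjusted p = 0.146). For RBP4, cold lambs reached 534 and AT lambs began at 530.3, so that the 2 groups barely met. For APLN, 5 of 6 AT lambs had 20.4 to 41.1 and lay below every cold lamb, and AT 6, at 96.0, lay among them. DESeq2 called 3 of these members, LEP (-1.79, DESeq2 adjusted p = 0.0404) and RBP4 (-1.41, DESeq2 adjusted p = 0.00759) lower and APLN (1.59, DESeq2 adjusted p = 0.0101) higher in cold, where it called 0.973% of all genes. Without AT 6, edgeR called APLN as well (2.06, edgeR adjusted p = 0.0242). ADIPOR1, ADIPOR2, RARRES2 and CFD had a log2FC between -0.35 and 0.68 (edgeR adjusted p = 0.590 to 0.863), and that of CFD turned to -0.32 without Cold 4.

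**Figure D4:**
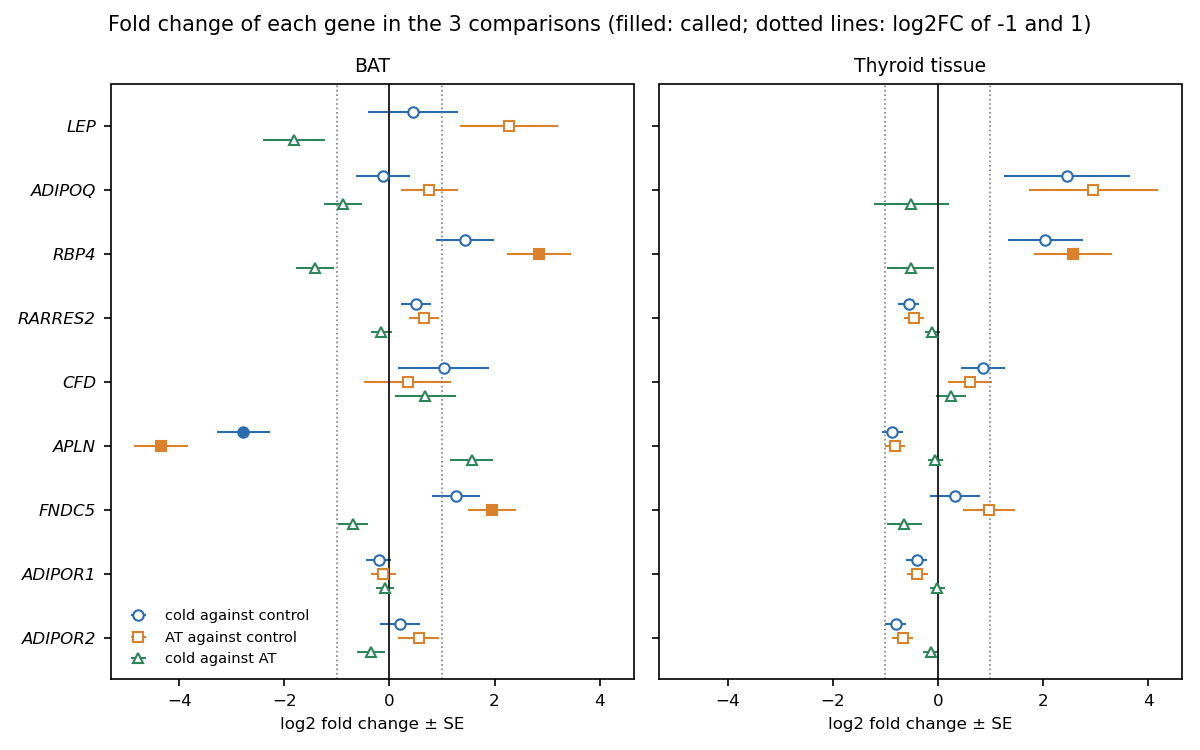
Log2 fold change with its SE (horizontal axis) of each member in BAT (left) and thyroid tissue (right) for cold against control, AT against control and cold against AT, with called values filled and dotted lines at -1 and 1. APLN in BAT lies farthest from 0, at -4.34 for AT and -2.78 for cold, and the cold against AT values in thyroid tissue all lie between -0.64 and 0.25.

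In thyroid tissue, scaling moved the median gene more than in BAT. The median log2FC over all genes was -0.28 in both comparisons with the controls under the reference genes. It was 0.02 (cold) and 0.05 (AT) under TMM scaling, which sets the bulk of genes near 0. In BAT it went from -0.10 to 0.02 in cold and from -0.03 to 0.05 in AT. A member with a log2FC of about -0.3 was therefore level with the typical gene. RBP4 was the 1 member called there: 1 of 8 was called higher in AT against control, where 1.83% of 16122 genes were called higher and 5.98% lower, and 0 were called lower. In cold against control 0 of 8 were called (1.89% of all genes higher, 6.15% lower), while 4 of 8 had an unadjusted p under 0.05 (35.5% of all genes) and DESeq2 called 1, RBP4, higher, as it did 2.92% of all genes. Groups that did not overlap were found for 4 of 8 members in cold (34.6% of all genes) and 3 in AT (27.3%) with 2 controls, and for 1 (16.2%) and 2 (12.6%) with 3 controls. Between cold and AT 0 of 8 members and 0% of all genes were called by edgeR, 0 members and 5.4% of genes had an unadjusted p under 0.05, and DESeq2 called 0 members.

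Thyroid RBP4 had 135 normalized counts in Control 1, 166 in Control 2 and 30.4 in Control 3. Cold lambs had 109 to 725 (median 270.5) and AT lambs 211 to 619 (median 580). All 6 AT lambs lay above the 3 controls, while Cold 6, at 109, lay among them. RBP4 was upregulated in AT (log2FC 2.56 ± 0.74, edgeR adjusted p = 0.0271, 5.92-fold) and had 2.05 ± 0.72 in cold (edgeR adjusted p = 0.0606). The AT call held with all 3 controls (2.16, edgeR adjusted p = 0.0255) and with TMM scaling (2.80, edgeR adjusted p = 0.0394), but it was lost with Controls 1 and 2 (1.71, edgeR adjusted p = 0.0782). In cold RBP4 was called without Cold 6 (2.24, edgeR adjusted p = 0.0394). The sum of 12 stromal markers was 18776 to 26533 in the 3 thyroid controls and 32518 to 149909 in the treated lambs, and its part in these values was not tested.

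**Figure D5:**
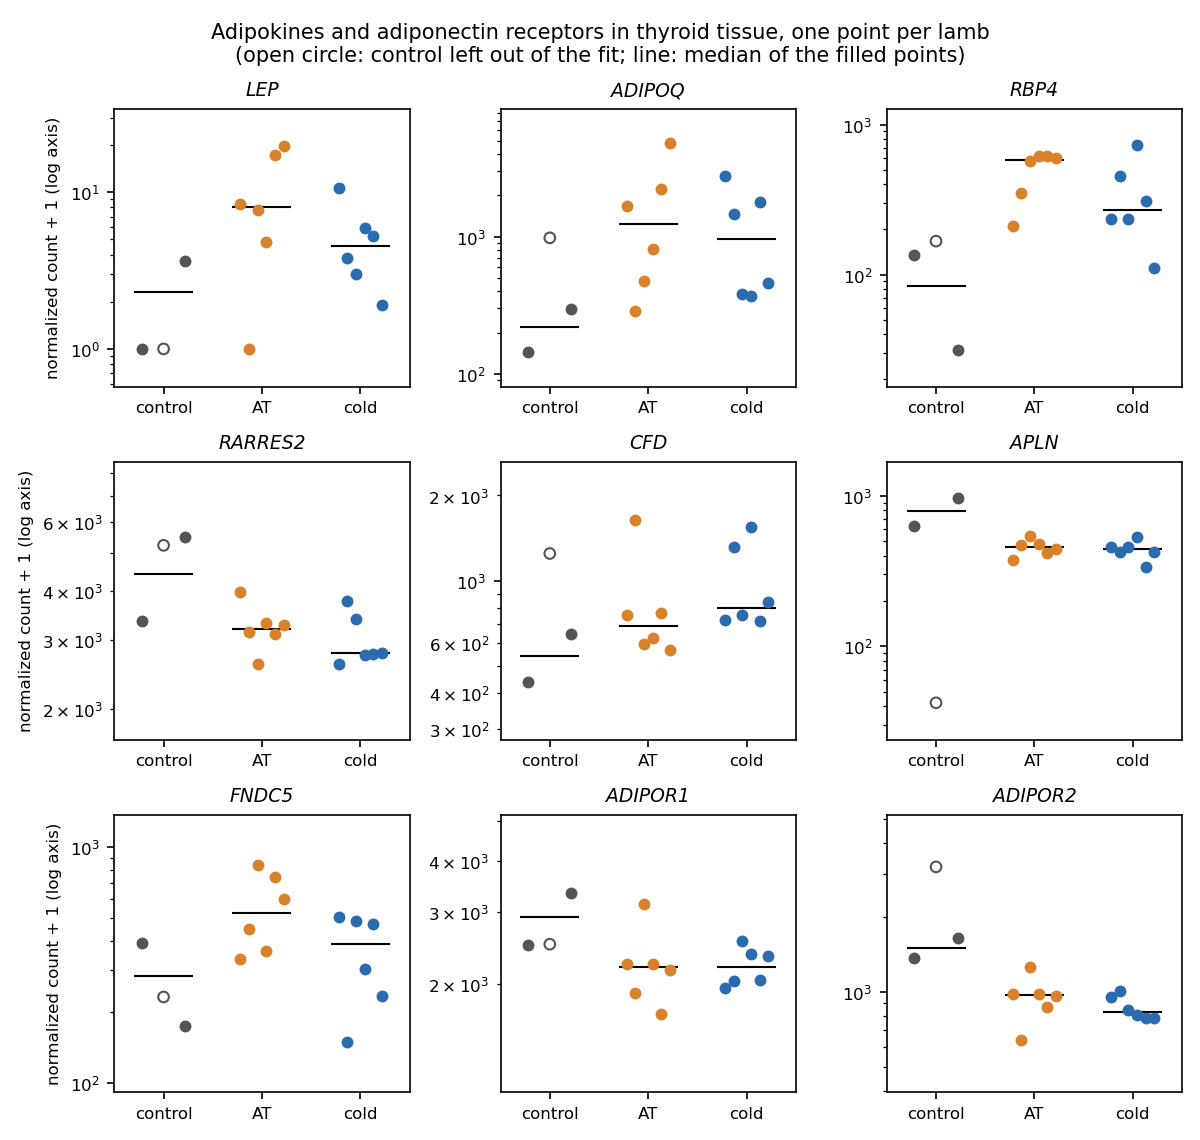
Normalized count plus 1 (log axis) in thyroid tissue of 9 members by group, with 1 point per lamb, a line at the median of the filled points and an open circle for Control 2. RBP4 is higher in the 6 AT lambs than in the controls, ADIPOR2 is highest in the 3 controls, and Control 2 has by far the least APLN, at 41.1.

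ADIPOR2 and APLN were lower in treated than in control thyroid tissue by less than the fold change asked for. ADIPOR2 had 1365, 3198 and 1652 normalized counts in Controls 1, 2 and 3, against 782 to 1012 (median 826) in cold and 638 to 1256 (median 971) in AT lambs, so that all 12 treated lambs lay below all 3 controls. Its log2FC was -0.80 ± 0.19 for cold (edgeR adjusted p = 0.0130) and -0.67 ± 0.19 for AT (edgeR adjusted p = 0.0258). With all 3 controls ADIPOR2 was called lower in both (-1.26 and -1.13, edgeR adjusted p = 0.00369 and 0.00660), while under TMM scaling the values were -0.50 and -0.34 (edgeR adjusted p = 0.0982 and 0.250). The adipocyte marker sum in thyroid tissue was 62564 in Control 2, the control with the most ADIPOR2, and 9975 to 25415 in the other lambs, and its part in that value was not tested. APLN had 632 and 959 in Controls 1 and 3, 336 to 529 (median 439) in cold and 371 to 536 (median 457) in AT lambs. Its log2FC was -0.86 ± 0.19 for cold (edgeR adjusted p = 0.00941) and -0.81 ± 0.19 for AT (edgeR adjusted p = 0.0110). The sum of the 13 endothelial markers was 42520.5, 42800 and 65541 in Controls 1, 2 and 3, 25309 to 33694 in cold and 25416 to 46544 in AT lambs. Of these markers edgeR called 4 of 13 lower in cold and 3 of 13 in AT, where 6.15% and 5.98% of all genes were. Their median log2FC was -0.61 and -0.59, beside -0.28 over all genes, and 1 in each was called under TMM scaling. Control 2, the control with the least APLN, had a sum close to that of Control 1. AT 1, the AT lamb with the least APLN, had the highest sum of the treated lambs. The part of these markers in the APLN values was not tested. Control 2 had 41.1, below every treated lamb, and with Controls 1 and 2 the sign turned to 0.37 for cold and 0.42 for AT (edgeR adjusted p = 0.706 and 0.677). By the adjusted p alone 2 of 8 members passed in cold (19.3% of all genes) and 3 of 8 in AT (21%), the third being RBP4.

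The remaining members in thyroid tissue were not called. ADIPOQ ranged from 143 in Control 1 to 4775 in AT 6, with 296 in Control 3, 979 in Control 2, 366 to 2756 (median 956) in cold and 289 to 4775 (median 1233) in AT lambs. Its log2FC was 2.45 ± 1.20 for cold (edgeR adjusted p = 0.162) and 2.96 ± 1.23 for AT (edgeR adjusted p = 0.103), and DESeq2 called the latter (2.96, DESeq2 adjusted p = 0.0212), as it did 3.04% of all genes. With Controls 2 and 3 the values were 0.92 and 1.43 (edgeR adjusted p = 0.603 and 0.399). FNDC5 had 391, 231 and 175 in Controls 1, 2 and 3, 149 to 503 in cold and 335 to 835 in AT lambs. AT 3 and Control 1, the thyroid libraries with the most skeletal muscle RNA, had the highest FNDC5 of their groups. Cold 4, with the highest muscle marker sum of the cold lambs (4708), had 303 and lay inside the cold range. The part of muscle RNA in the FNDC5 values was not tested. The log2FC was 0.33 ± 0.48 for cold (edgeR adjusted p = 0.656) and 0.97 ± 0.49 for AT (edgeR adjusted p = 0.171). Without AT 3 the AT value was 0.81 ± 0.48 (edgeR adjusted p = 0.212), and with Controls 2 and 3 the values were 0.82 and 1.46 (edgeR adjusted p = 0.260 and 0.0545). RARRES2 had -0.56 ± 0.20 for cold and -0.45 ± 0.20 for AT (edgeR adjusted p = 0.0582 and 0.1096), and ADIPOR1 had -0.40 ± 0.20 and -0.39 ± 0.20 (edgeR adjusted p = 0.165 and 0.169), both nearer to 0 under TMM scaling (-0.24 and -0.09 for RARRES2, -0.09 and -0.06 for ADIPOR1). CFD had 0.86 ± 0.43 and 0.61 ± 0.42 (edgeR adjusted p = 0.162 and 0.312), which became 0.06 and -0.19 with Controls 2 and 3 (edgeR adjusted p = 0.946 and 0.806).

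Whether a treatment effect differed between the tissues was tested as the log2FC in BAT minus that in thyroid tissue, in a fit of both. APLN differed in AT against control (-3.48 ± 0.65, edgeR adjusted p = 0.00652), that is, it was lowered more in BAT. This was 1 of 9 members, where 27 of 17021 genes (0.159%) were called in that direction and 256 (1.5%) in the other. With the lamb as a block the difference was -3.68 (edgeR adjusted p = 0.0106), and with Controls 2 and 3 it was -2.98 and no longer called (edgeR adjusted p = 0.0596). In cold against control the difference for APLN was -1.90 ± 0.63 (edgeR adjusted p = 0.218), and 0 of 9 members were called (0.0176% of genes lower, 0.165% higher), while 4 had an unadjusted p under 0.05 (11.7% of genes) and DESeq2 called 0. RARRES2 gave 1.08 ± 0.33 for cold (edgeR adjusted p = 0.180) and 1.16 ± 0.33 for AT (edgeR adjusted p = 0.0644), beside a median of 0.27 and 0.31 over all genes. Under the reference genes its log2FC was positive in BAT and negative in thyroid tissue, where it was nearer to 0 under TMM scaling. For cold against AT edgeR called 0 of 9 members and 0% of genes, 1 member and 7.87% of genes had an unadjusted p under 0.05 (APLN, 1.59 ± 0.45, edgeR adjusted p = 0.307), and DESeq2 called 0.

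Genes that act with these proteins were counted by lists of other adipokines, receptors and binding partners, signalling of leptin and adiponectin, alternative complement, and retinoid handling. In BAT few of them were called. In cold against control edgeR called 1 of the 89 genes tested, near the share of 1.21% called over all genes. The called gene was MASP1, a complement protease gene whose products include the activator of the CFD proenzyme (log2FC -2.35 ± 0.37, edgeR adjusted p = 0.0108). MASP1 had 1765, 1680.2 and 514 normalized counts in Controls 1, 2 and 3 and 157 to 368 in cold lambs. In AT against control 23 of the 89 genes had an unadjusted p under 0.05, near the share of 26% over all genes. DESeq2 called 5 of the 89 higher and 1 lower, beside 5.19% and 3.54% of all genes. By edgeR the complement list, of only 7 genes, had 2 called higher and 1 lower, where 2.82% and 3.19% of all genes were. They were CFB, factor B, the substrate of CFD (3.66 ± 1.04, edgeR adjusted p = 0.0420), CFI, factor I, an inhibitor of the pathway (2.53 ± 0.68, edgeR adjusted p = 0.0297), and MASP1. The call of CFB was lost in 7 of the 14 fits that left out a lamb (those without AT 1, AT 3, AT 4, AT 5, Cold 1, Control 1 and Control 3), with a log2FC of 3.03 to 3.68 and an edgeR adjusted p up to 0.0610. That of CFI was lost when only the AT and control lambs were fitted (2.49, edgeR adjusted p = 0.0639). CFI had low counts in Controls 1, 2 and 3, at 20, 0 and 34. WNT5A, a secreted Wnt ligand, was the 1 gene called of 25 other adipokines (1.90 ± 0.44, edgeR adjusted p = 0.0156), where 2.82% of all genes were called higher. Its call was lost when only the AT and control lambs were fitted (1.87, edgeR adjusted p = 0.0592). Of 16 retinoid genes 1 was called, also higher. This was ALDH1A3, which makes retinoic acid (1.12 ± 0.31, edgeR adjusted p = 0.0331), but with all 3 controls it had 0.31 (edgeR adjusted p = 0.620). Of 12 receptors and 29 signalling genes edgeR called 0 in either comparison, while 3 and 4 had an unadjusted p under 0.05 in cold (18.1% of all genes) and 4 and 7 in AT (26%). DESeq2 called the receptor C3AR1 in both and IRS1 in cold higher, as it did 2.79% (cold) and 5.19% (AT) of all genes. C3AR1 had 6, 5 and 4 counts in Controls 1, 2 and 3. IRS1 had 49.5 and 46.0 normalized counts in Controls 1 and 3 and 78.1 to 128.6 in cold lambs, but 495 in Control 2, above every cold lamb.

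In thyroid tissue the receptor and signalling lists held more called genes, in a comparison where 8.04% (cold) and 7.81% (AT) of all genes were called. STRA6, the cell surface receptor of RBP4, was downregulated in cold (log2FC -2.04 ± 0.45, edgeR adjusted p = 0.00879) and likewise in AT (-2.15 ± 0.45, edgeR adjusted p = 0.00559), opposite in sign to RBP4. It had 179, 430.2 and 349 normalized counts in Controls 1, 2 and 3 and 21.3 to 88.2 in the treated lambs. C3AR1, the receptor of the complement fragment C3a on white blood cells, was upregulated in cold (3.97 ± 0.61, edgeR adjusted p = 0.00207) and likewise in AT (2.99 ± 0.59, edgeR adjusted p = 0.00440). Its counts were low, at 6, 8 and 1 in Controls 1, 2 and 3, 42 to 107 in cold and 24 to 46 in AT lambs. The size of this fold is therefore uncertain, and with a lamb left out the log2FC was as low as 2.78 in cold and 1.80 in AT. CD55, an inhibitor of complement, was upregulated in both (2.48 ± 0.59 and 2.63 ± 0.59, edgeR adjusted p = 0.0120 and 0.00825). The calls of STRA6, C3AR1 and CD55 held under every alternative. VSIG4, a complement receptor of macrophages, was upregulated in cold (2.34 ± 0.64, edgeR adjusted p = 0.0228), but the call was lost with Controls 2 and 3 (1.97, edgeR adjusted p = 0.0565) and with Controls 1 and 2 (1.5, edgeR adjusted p = 0.0944). VSIG4 too had low counts, at 11, 11 and 3 in Controls 1, 2 and 3 and 22 to 71 in cold lambs. The 15 immune markers summed to 4034, 4463 and 4980 in the thyroid controls and to 3272 to 6723 in the treated lambs, and edgeR called 4 of the 13 tested higher and 0 lower in cold and 1 higher and 1 lower in AT (median log2FC 0.62 and 0.93, beside -0.28 over all genes). The part of these markers in the C3AR1, CD55 and VSIG4 values was not tested.

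Among the 29 other adipokines tested in thyroid tissue, 0 were called higher and 2 lower in cold, and 1 higher and 5 lower in AT. Over all genes 1.89% were called higher and 6.15% lower in cold, and 1.83% higher and 5.98% lower in AT. Under TMM scaling the lean to lower calls was gone. Of the 29, 2 were then called higher and 1 lower in cold, and 2 higher and 2 lower in AT. Of all 16122 genes, 457 were then called higher and 336 lower in cold, and 471 higher and 269 lower in AT. SFRP5, a secreted inhibitor of Wnt signalling, was downregulated in AT (log2FC -3.39 ± 0.83, edgeR adjusted p = 0.0138) under every alternative. NUCB2, the precursor of the satiety peptide nesfatin, was downregulated in cold (-1.40 ± 0.29, edgeR adjusted p = 0.00707), but not with Controls 1 and 2 (-0.62, edgeR adjusted p = 0.0898). The calls of C1QTNF5, a relative of adiponectin (-1.28 ± 0.25 in cold, edgeR adjusted p = 0.00547), and of SPX, the peptide spexin (-1.50 ± 0.46 in AT, edgeR adjusted p = 0.0339), were lost with all 3 controls (-0.93 and -1.001, edgeR adjusted p = 0.0483 and 0.226). ALDH1A3 was the 1 retinoid gene of 14 called, lower in both comparisons (-1.43 ± 0.29 and -1.63 ± 0.29, edgeR adjusted p = 0.00593 and 0.00266), and with Controls 1 and 2 it had -0.15 and -0.34 (edgeR adjusted p = 0.725 and 0.388). Of the 29 signalling genes 5 were called lower and 0 higher in each comparison, beside the 6.15% (cold) and 5.98% (AT) of all genes called lower. Those with the largest change were SOCS3, which dampens leptin receptor signalling (-1.56 ± 0.36 in cold, -1.85 ± 0.36 in AT, edgeR adjusted p = 0.0108 and 0.00388), and IRS1, an adaptor of the insulin receptor (-1.76 ± 0.46 and -1.84 ± 0.46, edgeR adjusted p = 0.0200 and 0.0144). The cold call of SOCS3 was lost with Controls 2 and 3 (-0.72, edgeR adjusted p = 0.125) and both calls of IRS1 with Controls 1 and 2 (-0.50 and -0.58, edgeR adjusted p = 0.405 and 0.348), and under TMM scaling 1 signalling gene in cold and 2 in AT were called lower. Between cold and AT edgeR called 0 genes of the 5 lists in either tissue, while 10 of 89 in BAT (12.3% of all genes) and 11 of 91 in thyroid tissue (5.4% of all genes) had an unadjusted p under 0.05, and DESeq2 called 1 in BAT (ALDH1A2) and 0 in thyroid tissue.

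The genes whose level followed each member most closely over the 14 libraries of a tissue were sought by Pearson's r of log2(normalized count + 1), as a description. In thyroid tissue ADIPOQ went with CIDEC (r = 0.98) and TRARG1 (r = 0.98), which encode a lipid droplet protein and a GLUT4 vesicle protein of adipocytes. The sum of 14 adipocyte markers, CIDEC among them, did not follow ADIPOQ across the groups. It was 16567 and 19472 in Controls 1 and 3, 9975 to 15994 in cold and 10782 to 25415 in AT lambs. ADIPOQ was lower in these 2 controls (143 and 296) than in every cold lamb (366 to 2756). The part of adipocytes in the thyroid ADIPOQ values was not tested. In BAT LEP went with PMM1 (0.94), APMAP (0.89) and PPP2R5A (0.87), and ADIPOQ with HTATIP2 (0.94), LDHB (0.94) and SORT1 (0.92). ADIPOR2 went with C1H1orf122 (0.97) and with DECR1 (0.95) and ACSF2 (0.94), enzymes of fatty acid metabolism. RBP4 went with PPEF1 (0.96) and PTGDS (0.92), FNDC5 with ADAMTS19 (0.90), RARRES2 with CENPV (0.92) and APLN with PSMA5 (0.95) and TMBIM1 (0.95). CFD went with CTSS (0.95), PRKCB (0.94) and IGSF6 (0.90), which are genes of white blood cells, with Spearman's rho of 0.67, 0.51 and 0.75. Libraries of a tissue share their scaling and their groups, so such values hold group differences as well as differences between lambs. Among the members themselves in BAT, ADIPOQ and ADIPOR2 had r = 0.73, LEP and ADIPOR2 0.66, and LEP and ADIPOQ 0.55, while APLN had -0.72 with RBP4, -0.71 with FNDC5 and -0.60 with LEP.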

How the data were processed

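RNA was measured in perirenal BAT and thyroid tissue of 15 lambs, 1 library per tissue and lamb. The authors enriched poly(A) RNA, sequenced it on the BGISEQ-500, trimmed reads with Trimmomatic 0.39, aligned them with STAR 2.7.7a to the Oar_rambouillet assembly and counted reads per gene with featureCounts of Subread 2.0.0, multi-mapping reads included. The deposited values are whole-number counts per gene, not normalized. The strand setting is not given in the sources used here.

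From these counts, each tissue was fitted with edgeR 4.0.16 (quasi-likelihood test, R 4.3.3) over cold, AT and the 2 controls the study kept, which were matched to the deposited libraries by the study's own tables. Size factors came from ACTB, RPL19 and HUWE1, and genes needed at least 10 counts in at least 10 libraries. Benjamini-Hochberg adjustment ran over all genes tested, and a call needed an absolute log2FC of at least 1 and an adjusted p under 0.05. A joint fit of both tissues gave the tissue difference and the differences between tissues. Its filter counted the libraries of both tissues together, so that a gene could pass through 1 tissue. Same-named BAT and thyroid libraries came from the same lamb, and an edgeR fit with the lamb as a block was an alternative. LEP in thyroid tissue was tested by exact permutation with a pseudocount of 1 (SciPy 1.17.1). Replicates are separate lambs. A fit without a control used the third control in its place. Other alternatives were TMM and median-of-ratios scaling, DESeq2 1.42.0, all 3 controls, no filter on low counts, only the 2 groups compared, and, chosen after seeing the data, all 3 controls with TMM scaling and all 3 controls without thyroid AT 3. The scripts were tested on simulated data.

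All members were named in every comparison. Of each wider list, the 2 called genes with the largest absolute log2FC were named, and for each member the up to 3 genes with the highest Pearson's r. MASP1 in AT, IRS1 and C3AR1 in BAT and ALDH1A2 were named after their values were seen. Members and lists were chosen with earlier results of these data known. No gene or protein sequence was used here. Chromosome numbers were matched by the gene names shared with RefSeq's ARS-UI_Ramb table, of which no coordinate is printed.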

Additional observations from a re-analysis of the deposited data

Results flagged for a closer look

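In groups of 6 lambs, 5 of the 36 groups tested held 1 lamb that stood apart from the rest by Dixon's criterion, which chance meets in about 1 in 20 groups of normally distributed values. All 5 were high values, and the normalized counts were not log-transformed, so that the chance rate for them is not known. CFD was the gene with most of them. In BAT, Cold 4 had 2354 normalized counts of CFD and the next cold lamb 577, and AT 2 had 1018 and the next AT lamb 403. In thyroid tissue AT 2 again had the most CFD of its group, 1642 against 764 in the next lamb. AT 2 also had the highest sum of immune markers in thyroid tissue, 6723, as Cold 4 had in BAT, and the part of this in CFD was not tested.

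RBP4 in BAT of AT 5 was 2305 against 1048 in the next AT lamb, and without AT 5 the AT log2FC was 2.40 (edgeR adjusted p = 0.00875). APLN in BAT of AT 6 was 96.0 against 41.1 in the next AT lamb. This is the lamb with the fewest adipocyte markers and the most stromal markers in BAT, and without it APLN was called higher in cold than in AT.

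The difference of APLN between the tissues in AT against control (-3.48 ± 0.65 on the log2 scale, edgeR adjusted p = 0.00652) stood out by the test of the difference itself, and it rests on 2 controls per tissue.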

How the results depend on the processing

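Of 94 results on single members, 74 kept their call in every setting, and of 1916 values under an alternative 1871 kept it, 37 passed the thresholds only there, 8 passed them only in the first analysis and 0 called values changed sign. Among values called in neither, 63 changed sign. The number of members called in cold against control in BAT was 1 and rose to 2 with all 3 controls and TMM scaling. It stayed at 1 in every fit that left out a lamb, but with Control 1 or Control 3 left out the called gene was ADIPOQ instead of APLN. In AT against control in BAT the number was 3, 4 with DESeq2 and 2 with all 3 controls and TMM scaling. It stayed at 3 in every fit that left out a lamb, but with Control 1 or Control 3 left out RARRES2 was called instead of RBP4. For cold against AT in BAT the number was 0, 3 with DESeq2 and 0 to 1 with a lamb left out. In thyroid tissue cold against control gave 0, but 1 with DESeq2, 1 with all 3 controls, 1 with all 3 controls and TMM scaling, 1 with all 3 controls without AT 3, 2 by the adjusted p alone, and 0 to 1 with a lamb left out. AT against control there gave 1, but 2 in the same 4 settings, 3 by the adjusted p alone, and 1 to 2 with a lamb left out. The difference between tissues gave 0 for cold against control, 1 with all 3 controls (RARRES2) and 0 to 1 with a lamb left out, and it gave 1 for AT against control, 2 with DESeq2, 2 with all 3 controls and 1 to 2 with a lamb left out. The cause of these shifts was not tested.

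Over all genes, the 180 calls in cold against control in BAT became 728 with all 3 controls, 628 with DESeq2 and 323 with TMM scaling. The 41 calls in cold against AT in BAT became 0 with all 3 controls and 145 with DESeq2. In thyroid tissue the 305 higher and 992 lower calls of cold against control became 457 and 336 with TMM scaling, and the 295 and 964 of AT against control became 471 and 269. With the replicate block (the lamb) APLN kept its difference between tissues in AT against control at -3.68 (edgeR adjusted p = 0.0106), and the pairing changed no call of a member. With 2 controls, 1 lamb can decide a call, and depth limits LEPR in both tissues and LEP in thyroid tissue.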

Other observations

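Over the 12 treated lambs, the level of each of 8 members in BAT was set against its level in thyroid tissue of the same lamb (log2 of the normalized count plus 1). CFD had the highest Pearson's r, 0.76 (permutation p = 0.0133, adjusted p = 0.106 over the 8 relations), with Spearman's rho of 0.51 (permutation p = 0.0929, adjusted p = 0.394). The relation rested on Cold 4 and AT 2, since r was 0.22 without them. Within the groups r was 0.71 in cold and 0.91 in AT lambs. RBP4 had r = 0.52 (permutation p = 0.0687, adjusted p = 0.275) and rho = 0.50 (permutation p = 0.0984, adjusted p = 0.394), and r was 0.20 without AT 5 and Cold 6. For the other 6 genes r lay between -0.30 and 0.22, with adjusted p from 0.772 to 0.836. None of the 8 relations passed the adjustment.

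In the controls, Control 2 differed from the other 2 in opposite directions for APLN and ADIPOQ in both tissues. In BAT it had 204209 normalized counts of ADIPOQ and 108 of APLN, against 17728 to 29776 and 675 to 1015 in the others. In thyroid tissue it had 979 of ADIPOQ and 41.1 of APLN, against 143 to 296 and 632 to 959.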
